A study of Mus musculus and Homo sapiens with 10 samples.

Results

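The regions described here lie at 6 mouse loci that hold genes induced by interferon: the Ifit cluster, Iigp1, Trim30a, Oasl1 with Oasl2, Ly6a with Ly6e, and Ifi44. They were chosen as every region of the 6 mouse lists that overlapped 1 of 6 windows of the mm9 build (chromosome 19 from 34600000 to 34750000, 18 from 60300000 to 60600000, 7 from 111500000 to 111700000, 5 from 115300000 to 115400000, 15 from 74780000 to 74850000 and 3 from 151350000 to 151450000). This gave 11 regions out of 966 in the mouse lists and 4818 in the whole series. The rule names 10 genes for these windows. The members were selected on a measured value, the H3K4me3 call itself, since the windows were drawn where H3K4me3 had been listed as higher. The direction of these regions is therefore not a finding.

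The lists come from MMTV-Myc cells, a mouse mammary tumour line named for a Myc transgene under the mouse mammary tumour virus promoter, which is active in mammary epithelium. Chromatin from cells transduced with a lentiviral (pLKO.1) short hairpin RNA against Cbx8, labelled Cbx8 knockdown, was compared with chromatin from cells carrying a scrambled hairpin (shScr), labelled wild type. The labels' protocols describe infection followed by puromycin selection and do not say which hairpin sequence was used. Chromatin was cut to mononucleosomes with micrococcal nuclease and precipitated with antibodies against H3K4me3, H3K27ac or H3K27me3, giving 6 ChIP libraries with 1 library per antibody and hairpin. The lists hold positions only, with no score, fold or read count per region. The depth is therefore unknown, no difference has a replicate check, and the level of Cbx8 in these cells could not be examined.

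Type I interferons act through a cell surface receptor and the kinases JAK1 and TYK2. The signal ends in transcription factors that bind interferon-stimulated response elements in the promoters of its target genes. H3K4me3 is found at the starts of transcribed genes, and H3K27ac both there and at enhancers in use. H3K27me3 is made by Polycomb complexes and goes with silent genes; Cbx8 can be part of the Polycomb machinery that reads it.

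The first 4 promoters below hold the core of the sequence that interferon-activated factors are known to bind at genes of this kind. The next pair holds no exact copy of that core. All are the RefSeq stretches of build GRCm38.p6 in front of each gene's start, 180 bases each. Capitals in the first 4 mark the core of the response element, searched as GAAANNGAAA on both strands, where N is any base. Their coordinates belong to GRCm38.p6 and cannot be set beside the mm9 positions of the listed regions.
Ifit3, chr19:34583349-34583528, plus strand: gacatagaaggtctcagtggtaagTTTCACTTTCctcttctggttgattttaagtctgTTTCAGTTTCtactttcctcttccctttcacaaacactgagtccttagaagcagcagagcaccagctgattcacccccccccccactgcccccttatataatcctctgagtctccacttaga
Ifit3b, chr19:34607745-34607924, plus strand: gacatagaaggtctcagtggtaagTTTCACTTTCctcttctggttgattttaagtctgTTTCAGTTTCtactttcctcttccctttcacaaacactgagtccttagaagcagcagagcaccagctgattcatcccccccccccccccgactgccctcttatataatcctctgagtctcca
Ifit1, chr19:34640709-34640888, plus strand: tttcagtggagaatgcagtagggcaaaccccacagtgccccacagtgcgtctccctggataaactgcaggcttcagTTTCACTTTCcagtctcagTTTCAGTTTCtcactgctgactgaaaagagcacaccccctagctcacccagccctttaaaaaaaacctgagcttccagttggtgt
Trim30a, chr7:104465194-104465373, minus strand: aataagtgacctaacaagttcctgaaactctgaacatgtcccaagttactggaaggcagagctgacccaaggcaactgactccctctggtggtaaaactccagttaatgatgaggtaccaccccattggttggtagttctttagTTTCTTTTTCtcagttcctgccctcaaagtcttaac
The next pair held no exact core, and capitals mark bases of stretches in which 1 of the 8 fixed bases differs. At Ifi44 the long run of capitals merges 3 overlapping stretches, and the capitals at the end are the first 4 bases of a stretch that runs past the start. These promoters were added after their sequences were seen, to show 1 gene from each of the Ifi44 and the Oasl1 and Oasl2 windows.
Ifi44, chr3:151749911-151750090, minus strand: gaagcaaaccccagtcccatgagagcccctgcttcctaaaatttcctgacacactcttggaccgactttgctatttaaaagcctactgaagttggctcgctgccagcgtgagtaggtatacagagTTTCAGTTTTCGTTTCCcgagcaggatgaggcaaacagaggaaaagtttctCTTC
Oasl2, chr5:114896754-114896933, plus strand: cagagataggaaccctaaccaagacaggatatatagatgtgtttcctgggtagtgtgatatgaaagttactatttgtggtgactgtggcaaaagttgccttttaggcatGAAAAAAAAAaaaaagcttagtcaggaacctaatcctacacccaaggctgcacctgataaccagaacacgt
Ifit3b is a neighbouring copy of Ifit3 and not among the 10 named genes. Its stretch is shown from 212 to 33 bases before its start, so that it lines up with that of Ifit3.

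H3K4me3 was listed as higher at 10 regions in the windows and as lower at 0. Over all 719 changed H3K4me3 regions of this line, 18 were higher (2.50%) and 701 lower (97.5%). The 10 regions were 55.6% of the higher list, and each of the 6 windows held at least 1. Together they spanned 25.35 kb of the 40.15 kb in the higher list and 2.76% of the 920 kb in the windows. Because the windows were placed on these calls, nothing is read from the contrast with the background.

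The Ifit cluster on chromosome 19 held 3 of the 10 regions, more than any other window. Ifit proteins bind viral RNA that lacks the marks of host messages and block its translation. The regions ran from 34657551 to 34659700 (2.15 kb), from 34681601 to 34684350 (2.75 kb) and from 34714351 to 34718100 (3.75 kb). Gaps of 21.9 kb and 30.0 kb separated them. They covered 8.65 kb, or 5.77% of the window. In the RefSeq gene order of GRCm38.p6, 6 Ifit genes follow one another: Ifit2, Ifit3, Ifit1bl1, Ifit3b, Ifit1bl2 and Ifit1. The cluster thus has more genes than listed regions, and which gene each region lies on was not determined, since no annotation of mm9 was used here.

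Iigp1 encodes an immunity-related GTPase that attacks the vacuoles of intracellular parasites. Its window on chromosome 18 held 2 regions with higher H3K4me3, from 60371301 to 60373100 and from 60541701 to 60543500. Both were 1800 bp long, and they were 169 kb apart, the widest spacing within any window. The window is also the longest, at 300 kb, and listed H3K4me3 regions covered 1.20% of it. In the RefSeq order the coding neighbours of Iigp1 are Gm4841 and F830016B08Rik on one side and Smim3 and Dctn4 on the other. Here, as in every window, which gene each region lies on was not determined, and a region may lie on a neighbour.

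Trim30a encodes a TRIM-family protein that restrains Toll-like receptor signalling. The window on chromosome 7 held regions from 111593151 to 111594900 (1750 bp) and from 111612501 to 111614300 (1800 bp), 17.6 kb apart. This was the shortest gap between any neighbours in the higher list. The RefSeq promoter table lists 2 starts for Trim30a, and Trim30b, Trim30c and Trim30d lie beside it in gene order.

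The remaining windows held 1 region each. Oasl1 and Oasl2 encode relatives of the oligoadenylate synthetases, and Oasl1 is known to limit translation of Irf7. The region in their window on chromosome 5 ran from 115346701 to 115350100 (3.40 kb). Ly6a, also called Sca-1, and Ly6e encode small surface proteins held by a lipid anchor. The region in their window on chromosome 15 ran from 74825751 to 74828850 (3.10 kb). Ifi44 is a cytoplasmic protein induced by interferon. The region in its window on chromosome 3 ran from 151410051 to 151413100 (3.05 kb). In the RefSeq order Ifi44l lies beside Ifi44, and which of them the region lies on was not determined. With 1 region for a pair of genes, the lists do not show H3K4me3 listed as higher at separate places for both genes of the pair in the chromosome 5 or the chromosome 15 window.

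**Figure D1:**
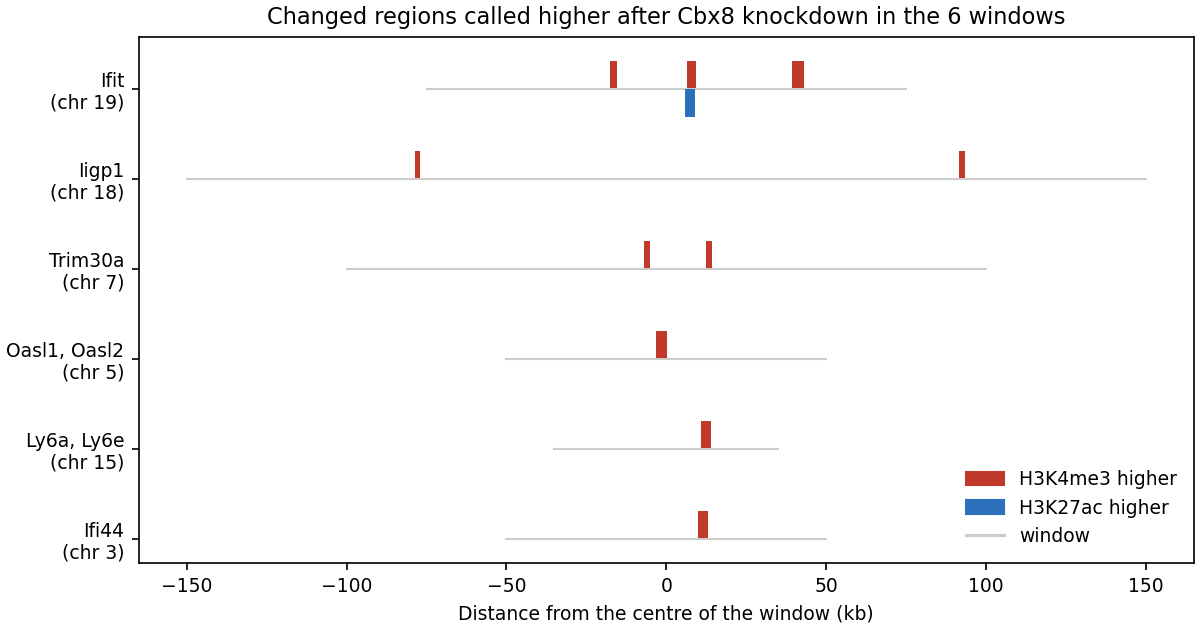
Regions called higher after Cbx8 knockdown in the 6 windows. The x axis gives the distance from the centre of each window in kb, grey lines are the windows, red bars are H3K4me3 regions and the blue bar is the H3K27ac region, all drawn to scale. The Ifit window holds 3 H3K4me3 regions and the 1 H3K27ac region, the Iigp1 and Trim30a windows hold 2 H3K4me3 regions each, and the others hold 1.

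H3K27ac was listed as higher at 1 region in the windows and lower at 0, while the whole H3K27ac comparison held 16 higher (8.79%) and 166 lower (91.2%) of 182 changed regions. The region lay in the Ifit cluster, from 34680851 to 34684100, and at 3.25 kb was the second longest of the higher list. It shared 2.50 kb with the middle H3K4me3 region of the cluster, which is 76.9% of the H3K27ac region and 90.9% of the H3K4me3 region. The H3K27ac region began 750 bp before the H3K4me3 region and ended 250 bp before it did. The outer H3K4me3 regions of the cluster and the 7 regions in the other 5 windows had no listed change of H3K27ac. The share of H3K4me3 regions outside the windows with a listed H3K27ac change was not counted, so nothing is read from these counts. A region missing from a list may still have changed by less than the fold of 1.8 and the q-value of 1e-08 that the list names state.

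H3K27me3 had 0 listed regions in the windows in either direction. Over the line, 63 of 65 changed H3K27me3 regions were lower (96.9%) and 2 higher (3.08%). The nearest H3K27me3 change to any window was a lower region of 3.30 kb on chromosome 15 (75986901 to 75990200), 1.14 Mb beyond the Ly6a and Ly6e window. For the Ifit window it was 3.67 Mb away, for Oasl1 and Oasl2 4.03 Mb, and for Iigp1, Trim30a and Ifi44 at least 26.8 Mb.

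Just inside the windows, the region nearest to an edge was that of Ly6a and Ly6e, 21.1 kb from it, and the other 9 H3K4me3 regions were 31.9 to 93.2 kb from theirs. Just outside, the nearest higher H3K4me3 region on the same chromosome was 5.80 Mb from the Oasl1 and Oasl2 window (121198051 to 121200050, 2.00 kb). The other higher H3K4me3 region of chromosome 5 outside the windows (105538001 to 105539950, 1950 bp) lay 9.81 Mb before the Oasl1 and Oasl2 region. For the Ly6a and Ly6e window the nearest such region was 24.6 Mb away, and for that of Ifi44 over 100 Mb. The Ifit, Iigp1 and Trim30a windows had no other higher H3K4me3 region on their chromosomes. Every gap below 1 Mb between neighbours in the higher list was inside a window. Because the windows were placed on these calls, nothing is read from that.

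Lower H3K4me3 regions lay closer, but there were 701 of them in the lists against 18 higher ones, so nothing is read from that. One of 0.90 kb on chromosome 18 (60755401 to 60756300) was 155 kb beyond the Iigp1 window. Another of 0.85 kb on chromosome 15 (74317701 to 74318550) was 461 kb from the Ly6a and Ly6e window, and 1 of 2.40 kb on chromosome 5 (115992101 to 115994500) was 592 kb from the Oasl1 and Oasl2 window. For Trim30a, Ifit and Ifi44 the distances were 1.03, 1.88 and 5.93 Mb. Of the H3K27ac changes outside the windows, the closest was a higher region of 1.55 kb on chromosome 15 (75092701 to 75094250), 243 kb beyond the Ly6a and Ly6e window.

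The 10 H3K4me3 regions were 1750 to 3750 bp long, with a median of 2450 bp and a mean of 2535 ± 763 bp (SD over 10 regions of 1 library pair, which are not replicates). The 8 higher regions outside the windows were 1300 to 2550 bp long with a median of 1825 bp. The 701 lower regions had a median of 1850 bp and an interquartile range of 1400 to 2500 bp. The lengths were known when the windows were drawn, so they are described without a test.

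The members fell on both sides of the lower regions' upper quartile of 2500 bp. The 5 longest of the 18 higher regions were all in the windows: 2 at the Ifit cluster and those in the windows of Oasl1 with Oasl2, Ly6a with Ly6e, and Ifi44. Only 5.56% of the lower regions were as long as the longest Ifit region, and 8.27% as long as that of Oasl1 and Oasl2. The remaining Ifit region, at 2150 bp, was within the interquartile range of the lower regions. The 4 regions of the Iigp1 and Trim30a windows, at 1750 to 1800 bp, were below the median of the lower regions. Windows with 2 regions thus had short ones, while the windows with 1 region had regions of at least 3050 bp. The Ifit window broke this order, since it had 3 regions and held the longest of the list (3750 bp).

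**Figure D2:**
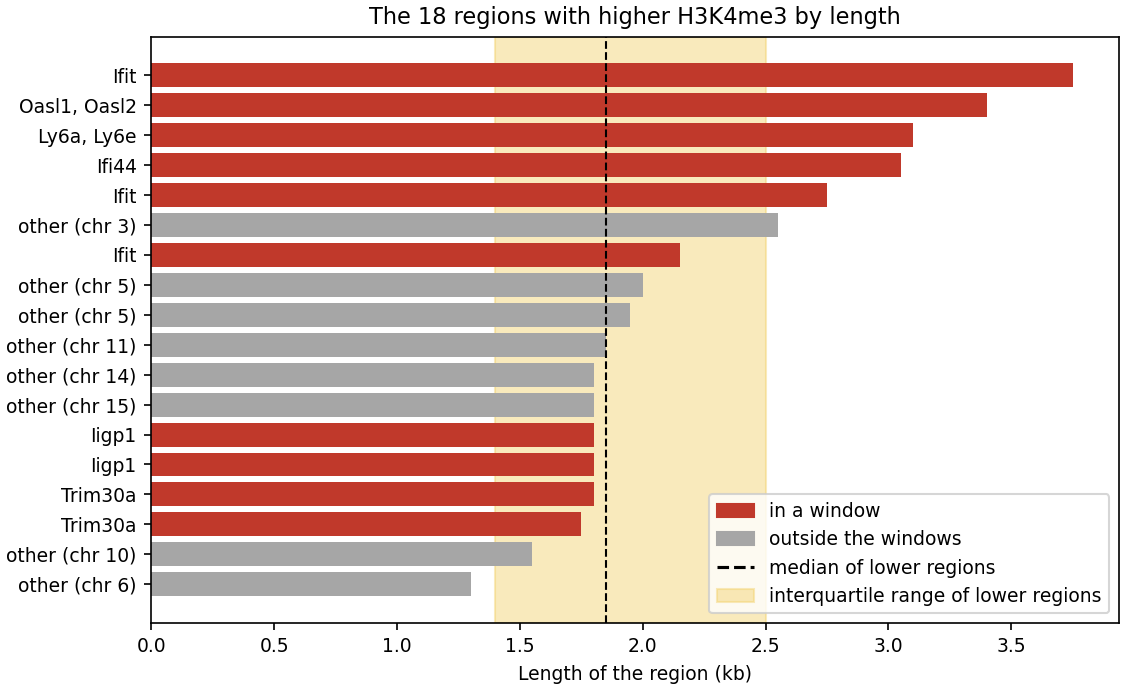
Length in kb of each of the 18 H3K4me3 regions called higher, ordered from longest to shortest. Red bars are the 10 regions in the windows and grey bars the 8 others; the dashed line is the median (1850 bp) and the band the interquartile range (1400 to 2500 bp) of the 701 lower regions. The 5 longest bars are red, and the 4 bars of the Iigp1 and Trim30a windows end left of the dashed line.

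The rule did not use the promoter sequences, but it names genes induced by interferon. A response element core in their promoters is therefore not independent of that choice. Of the 10 named genes, 7 had an entry in the RefSeq promoter table, which gives 250 bases before to 50 after each start; Iigp1, Ly6a and Ly6e were not among them. The response element core was found at 3 of the 7 genes: Ifit1, Ifit3 and Trim30a. In the whole table it was found at 3.99% of 27025 genes, and in 3.44% of 32851 stretches of the same length. A match is a string of letters and does not show that a factor binds.

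At Ifit3 the cores began 156 and 122 bases before the start, 34 bases apart. Ifit3b held the same pair at the same spacing, beginning 188 and 154 bases before its own start. Over 260 aligned bases the promoters of the pair were identical at 258 (99.2%, gaps not counted). Trim30a and Trim30d were identical at 276 of 295 aligned bases (93.6%), and the core of Trim30d lay 41 bases before its start against 36 at the first start of Trim30a. The sources used here do not say whether reads that fit both copies were kept, dropped or split, so regions at such copies are uncertain as to which copy gave the reads.

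Ifit1 held cores beginning 104 and 85 bases before the start, 19 bases apart. The same bases, read on the other strand, were those found in front of Ifit1bl2, which is transcribed away from Ifit1 with its first start close by. Those cores begin 70 and 51 bases before the Ifit1bl2 start. One stretch with a pair of cores therefore stands in front of both genes. Among the copies of Ifit genes, Ifit1bl1 held 1 core at each of its 2 starts. Ifit2 held none at either of its starts and had the only gamma-activated site core of the 7 genes (searched as TTCNNNGAA on both strands, found at 9.55% of all genes).

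Oasl1, Oasl2 and Ifi44 held no exact core in these stretches. Ifi44 held 4 stretches with 1 fixed base different, 3 of them overlapping at 48 to 55 bases before the start, and Oasl1 held 2 and Oasl2 1. With 3 free bases allowed as well as 2, the core was also found at Ifi44. That made 4 of the 7 genes, against 6.9% of all genes. A stretch with at most 1 differing base, exact cores included, was found at all 7 genes and at 38.9% of all genes, so such stretches are common. Oasl2 alone held TATAAA (15.7% of all genes, both strands), and CACGTG, the E-box that Myc can bind, was found at 0 of the 7 against 8.09% of all genes. These letters may lie outside the window searched.

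**Figure D3:**
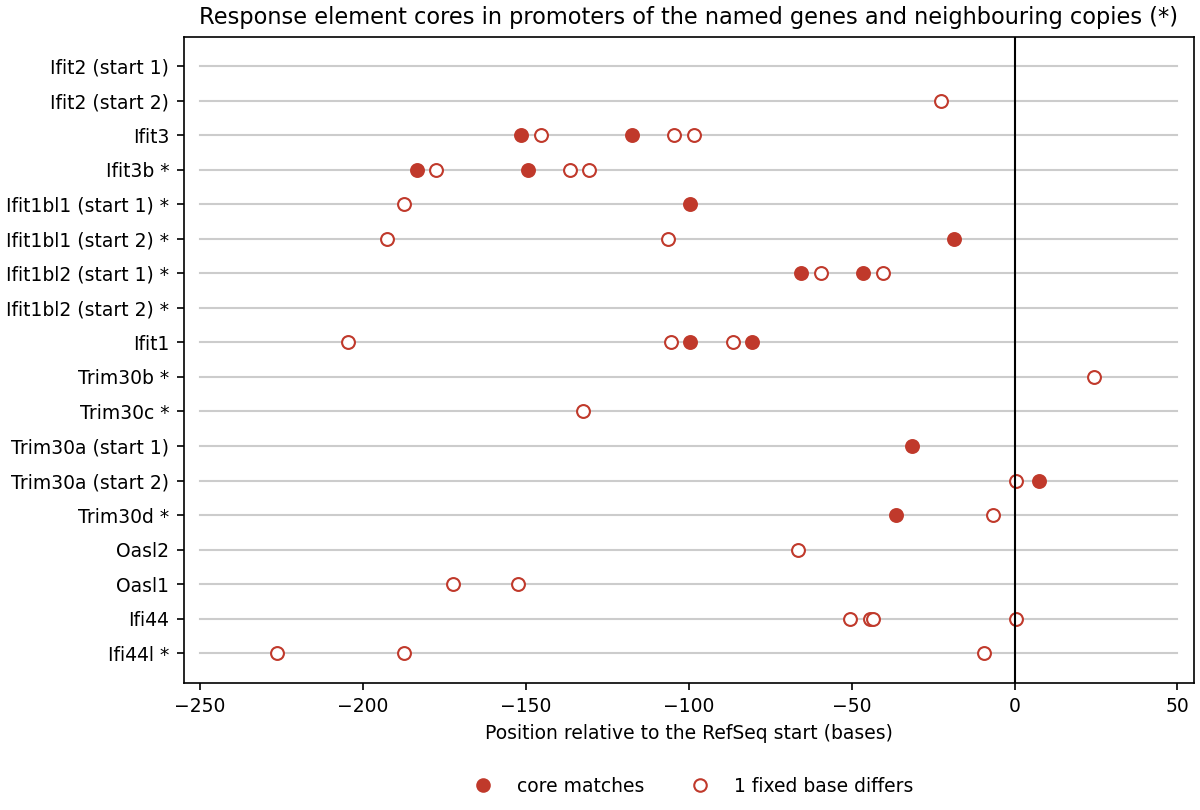
Position of the response element core in RefSeq promoters of the 7 named genes and of 7 neighbouring copies (asterisk), in bases relative to the start (vertical line). Filled circles are exact cores and open circles are stretches with 1 of the 8 fixed bases different, drawn at their middle. Ifit3 and Ifit3b show the same pair of cores 34 bases apart, and Ifit1 and Ifit1bl2 a pair 19 bases apart.

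A list of 34 other interferon-induced genes served to place these promoters. It includes Isg15, a ubiquitin-like modifier, Rsad2 (viperin), Stat2, Oas1a, Gbp2 and Cxcl10. Of the 34, 24 had a promoter in the table, and 15 of these 24 held the core (62.5%), among them Isg15, Rsad2, Stat2, Oas1a, Gbp2 and Cxcl10. Irf7, Irf9, Psmb8, Psmb9 and Tap1 were among the 9 that did not. Of the 7 neighbouring copies, 4 held it. Whether the 34 genes carry a listed change of any mark was not analysed here.

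CpG content differed among the promoters of the named genes. CpG observed over expected compares the number of CG pairs with that implied by the C and G content, and is high in CpG islands. Its median over the 7 genes was 0.27 (range 0.00 to 0.51), against 0.39 for the other interferon-induced genes and 0.39 for all genes. Trim30a held 0 CG pairs at either start (0.00), Ifit3 held 1 (0.06) and Ifit1 held 4 (0.21). The 4 genes without the core had the higher values: 0.27 for Oasl2, 0.39 for Ifi44, 0.40 for Oasl1 and 0.51 for Ifit2. The other list did not divide in this way: Ifih1 (0.82) and Stat2 (0.83) held the core, and so did Gbp3 (0.14) and Oas3 (0.14). Nor did the neighbouring copies, whose median was 0.07. Of these, Trim30b (0.14) and Trim30c (0.07) lacked the core, while Ifit1bl2 (0.12) held it. Ifi44l, also without the core, had the highest value of the copies (0.49).

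**Figure D4:**
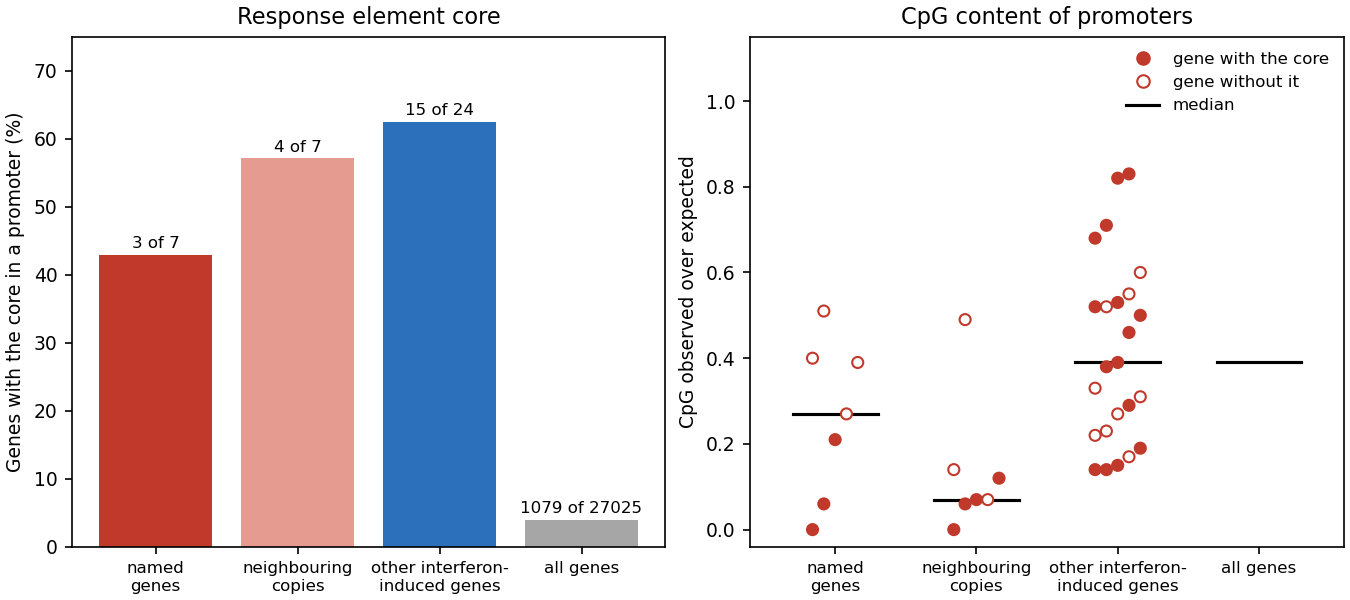
Left, percent of genes with the response element core in a RefSeq promoter, with counts above the bars. Right, CpG observed over expected, each circle 1 gene (mean over its starts, filled where it holds the core) and each line a median; single values of all genes are not drawn. The core was found at 3 of 7 named genes and 3.99% of all genes, and the 3 named genes with it have the lowest CpG values of the 7.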

How the data were processed

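The authors deposited region lists that give chromosome, start and end and no other column, 1 list per mark and direction; the 6 mouse lists were used. The deposited lists' names state the thresholds, which were 1.8 for the fold and 1e-08 for the q-value. The submitters' processing notes name Bowtie 1.0.0, SICER, MACS2 2.1.0 and FastQC 0.10.0, and mm9 as the mouse build; which tool called the changed regions, how reads with several matches were treated, and any scaling for depth are not given in the sources used here. Region edges lay on a 50 bp grid, and starts were read as counted from 0 with the end included. Positions are printed counted from 1.

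Regions were kept where they shared at least 1 bp with a window. The members and lists were chosen with earlier results of these data known. With 1 library per condition, no test was made. RefSeq tables of GRCm38.p6 gave gene order and promoters; their positions were not compared with mm9. A gene counts as holding a motif if any of its starts does. Promoters were aligned end to end with free end gaps. The named items include the 10 genes, every region in the windows, the nearest region outside each, and promoters holding the core. Also named are the promoters of Ifi44 and Oasl2, neighbouring genes, some other interferon-induced genes, and another higher region of chromosome 5. The code was tested on simulated data. Python 3.11.15, pandas 2.3.3, numpy 2.4.6, Biopython 1.88 and matplotlib 3.10.9 were used.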

Additional observations from a re-analysis of the deposited data

How the results depend on the processing

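Of 30 alternative values over 7 results, 27 stayed within 1.5 times the count, or within 1 SD over members, of the value reported, and 3 moved. When higher H3K4me3 regions shorter than their list's median of 1900 bp were left out, the windows held 6 in place of 10. The same cut left 9 of the 18 regions in the whole higher list. Windows widened by 500000 bp on each side held 2 lower regions of any mark in place of 0, while widening by 50000 bp left 0. With 1 fixed base of the core allowed to differ, 7 of 7 genes held it in place of 3, as did 38.9% of all genes. The median length of 2450 bp ranged from 1800 bp without the Ifit window to 2900 bp without the Iigp1 or the Trim30a window. The median CpG value of 0.27 ranged from 0.24 to 0.33 when 1 gene was left out. No paired analysis was possible because each condition had 1 library. Depth limits all lists to an unknown extent.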
